A study of Rattus norvegicus with 15 samples.

Results

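The metallothioneins and the classical antioxidant response genes were followed across the 5 groups of a rat model of paraspinal muscle atrophy. The 10 genes were chosen by symbol from the table of 37991 genes, namely Mt1, Mt2A, Hmox1, Nqo1, Gclc, Gclm, Txnrd1, Srxn1, Sod2 and Cat, and all 10 were found and passed the filter on low counts. RNA of the multifidus, a deep muscle beside the spine, was sequenced from wild-type male Sprague Dawley rats of 12 weeks. The control group (2 libraries) had no injury. The surgery group (2 libraries) had a hemilaminectomy, the removal of one side of the vertebral arch, with ligation of the left L5 spinal nerve, and no treatment. The pMT group (4 libraries) had the same operation and then mitochondria isolated from human plasma (pMT), 25 µg at each site and 50 µg in all. The VitD group (3 libraries) had the operation and cholecalciferol (VitD), 150 µg at each site and 300 µg in all, and the pMT/VitD group (4 libraries) had the operation and both. Injection of pMT took place on day 14 and muscle was collected on day 28 for the control, surgery and pMT groups, while the days of the VitD groups are not given in the sources used here. No group received the injection vehicle alone after surgery, so the agent and the act of injecting cannot be told apart when pMT is compared with surgery.

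Metallothioneins are small cysteine-rich proteins that bind zinc and copper, and their genes are switched on by metals through the transcription factor MTF1, by glucocorticoids and by inflammation. The antioxidant response is run by the transcription factor Nrf2 (gene Nfe2l2), which Keap1 holds back until oxidants or electrophiles modify it. Its targets make glutathione, regenerate thioredoxin and peroxiredoxins, break down heme and detoxify quinones, while the superoxide dismutase of mitochondria and catalase remove superoxide and hydrogen peroxide.

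The results below turn on the metallothioneins, so the 250 bases before the start of each are shown first, read 5′ to 3′ on the gene's strand from RefSeq with the rat GRCr8 build. Mt1 lies at chr19:10831959-10832975 and Mt2A at chr19:10837934-10838708, both on the minus strand, and the stretches shown are chr19:10832976-10833225 and chr19:10838709-10838958. Capitals mark matches to TGCNCNC on both strands. This pattern is looser than TGCRCNC (R is A or G), the core of the metal response element, which MTF1 binds.
Mt1: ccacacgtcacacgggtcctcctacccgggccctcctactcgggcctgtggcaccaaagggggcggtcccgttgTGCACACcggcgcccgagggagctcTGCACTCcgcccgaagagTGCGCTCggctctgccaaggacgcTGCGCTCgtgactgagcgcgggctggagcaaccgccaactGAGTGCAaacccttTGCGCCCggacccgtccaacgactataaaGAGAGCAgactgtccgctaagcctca
Mt2A: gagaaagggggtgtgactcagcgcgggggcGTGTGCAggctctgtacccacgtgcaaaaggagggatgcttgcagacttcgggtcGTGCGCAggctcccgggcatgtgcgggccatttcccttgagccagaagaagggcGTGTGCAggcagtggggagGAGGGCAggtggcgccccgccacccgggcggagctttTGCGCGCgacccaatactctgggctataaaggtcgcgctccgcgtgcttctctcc
The Mt1 stretch held 7 matches and the Mt2A stretch 5, with first bases between 176 and 26 bases before the start in Mt1 and between 220 and 55 in Mt2A. Of 33469 rat promoters of the same length, 43.4% held at least 1 match, 0.37% at least 5 and 0.0598% at least 7. Promoters were matched for 9 of the 10 genes, and Hmox1 was the unmatched one. Cat and Gclm had 2 matches each and Srxn1 had 1, while Nqo1, Gclc, Txnrd1 and Sod2 had 0. The match 26 bases before the start in Mt1, that at 92 in Mt2A and those of Cat and Srxn1 have C or T in the R place. They are thus not matches to the stricter core. The Gclc stretch lay mostly inside the listed gene and the 2 Txnrd1 stretches wholly inside it. Counts for these genes are thus not from the 250 bases before the listed start. The core of the antioxidant response element, the site of Nrf2, was searched as TGACNNNGC on both strands and matched once in Mt1, Mt2A, Gclm, Sod2 and 1 of the 2 Txnrd1 promoters, against 10.1% of all promoters. These are matches of letters in one window and say nothing about binding.

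The libraries held between 52342134 and 73557878 counts. Muscle fibre markers (8 genes such as Ckm, muscle creatine kinase, and Acta1, skeletal actin) summed to between 104300 and 184200 CPM (counts divided by library totals after scaling by trimmed mean of M values, times 1e6), so the labelled tissue was present in every library. Replicate 4 of the pMT group and replicate 4 of the pMT/VitD group stood apart from their groups. Over 7804 genes, the typical distance between 2 libraries (median absolute deviation of their log2 ratios) was 0.285 to 0.492 from pMT replicate 4 to the other pMT libraries and 0.167 to 0.261 to pMT/VitD replicates 1 to 3. The reverse held for pMT/VitD replicate 4, at 0.185 to 0.235 to pMT replicates 1 to 3 and 0.340 to 0.437 to its own group. Transcripts of the 13 mitochondrial genes took 22.6% of counts in pMT replicate 4 against 11.1% to 12.9% in the other pMT libraries. The labels were kept as given, and some results that rest on these 2 libraries are also given without them. They were picked from these data for lying nearer the other group, so leaving them out favours a difference between pMT and pMT/VitD. The p-values of those fits do not allow for this choice. Whether the labels of these 2 libraries were exchanged was not tested.

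Averaged over all libraries, Sod2 and Cat were the most abundant of the 10 genes and Gclc and Srxn1 the least. In TPM, the authors' level per gene length, Sod2 averaged 127 over the 15 libraries, Cat 51.4, Mt2A 24.3, Hmox1 14.5, Mt1 11.8, Txnrd1 9.98, Nqo1 9.34, Gclm 7.45, Srxn1 5.19 and Gclc 3.40. The Sod2 range of 106 to 155 TPM lay above that of Cat, 34.7 to 66.4 TPM, whereas the ranges of every other pair of neighbours in this order overlapped. The order was not that of the controls alone. There Mt1 averaged 5.045 TPM, below Srxn1 at 5.94, and Hmox1 averaged 16.12 TPM, above Mt2A at 14.05. The genes differed in how far they varied. The ratio of the highest to the lowest CPM among the 15 libraries was 8.995 for Mt1, 8.03 for Mt2A, 5.48 for Hmox1 and 4.46 for Srxn1, and between 1.34 (Nqo1) and 1.93 (Gclc) for the remaining 6. In a test for any difference among the 5 groups, Mt1 (adjusted p = 0.0017) and Mt2A (adjusted p = 0.0458) were called by edgeR's quasi-likelihood test with Benjamini-Hochberg adjustment over 17201 genes, at a threshold of 0.05. That is 2 of 10 genes, with 11.8% of all genes called. The Mt2A call was lost in 15 of 25 alternative settings, with adjusted p up to 0.0968, and the Mt1 call in none.

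Mt1 had similar levels in control, pMT and pMT/VitD muscle and higher levels in surgery and VitD muscle. It measured 1.59 and 1.58 CPM in the 2 control libraries and 5.52 and 5.78 CPM in the 2 surgery libraries. In the VitD group it measured 11.60, 5.67 and 2.73 CPM. The surgery libraries agreed closely, while the 3 VitD libraries spread over a wide range, all of it above the controls. The pMT libraries measured 2.09, 1.47, 1.42 and 1.79 CPM. The pMT/VitD libraries measured 1.66, 1.95, 1.29 and 1.50 CPM. None of these 8 libraries reached the lowest library of the surgery or VitD group, and they lay on both sides of the controls. The counts behind these values ran from 60 to 992 per library.

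Mt2A had the same order of groups with more spread. It measured 4.15 and 4.52 CPM in the controls and 9.64 and 9.66 CPM after surgery alone. The VitD libraries measured 20.54, 9.31 and 4.55 CPM, so that the lowest VitD library was level with the controls. In the pMT group the values were 5.78, 4.07, 3.27 and 4.94 CPM, and in the pMT/VitD group 5.32, 4.69, 2.56 and 5.37 CPM. Both of these groups overlapped the controls and lay below the surgery libraries, but not below every VitD library. Replicate 4 of pMT and of pMT/VitD lay within the range of the other replicates of its group for Mt1, and for Mt2A at 4.94 and 5.37 CPM it was inside or next to it.

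**Figure D1:**
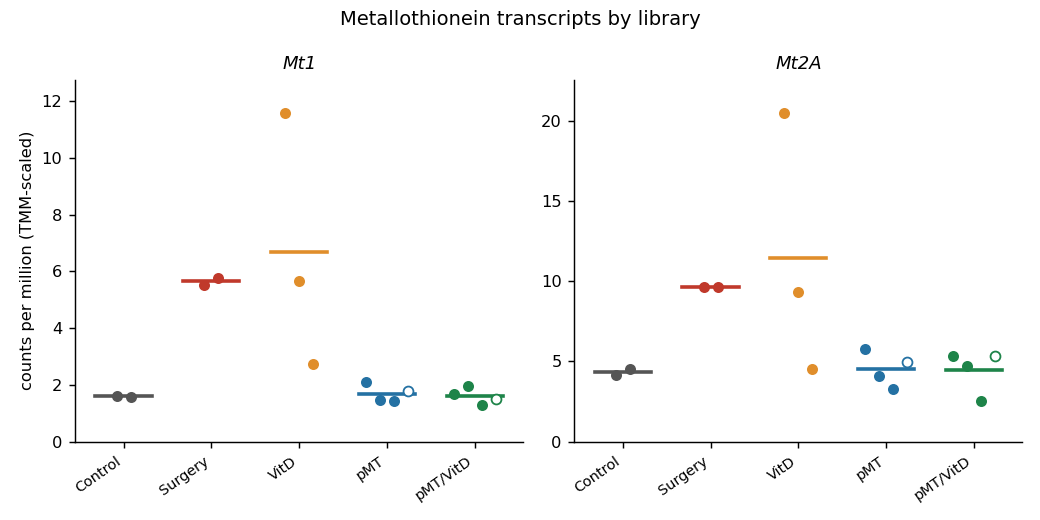
CPM of Mt1 (left) and Mt2A (right) in each library, scaled by trimmed mean of M values, with each group's mean as a bar and open circles for replicate 4 of pMT and of pMT/VitD. Mt1 was between 1.29 and 2.09 CPM in all 8 libraries given pMT and between 2.73 and 11.60 CPM in the 5 operated libraries without it.

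Surgery alone was compared with no injury. Mt1 was 1.83 ± 0.46 higher on the log2 scale (estimate ± SE), a fold of 3.55, and Mt2A was 1.15 ± 0.50 higher, a fold of 2.23. Neither passed the threshold in this test (quasi-likelihood adjusted p = 0.0588 and 0.259), and 0 of 10 genes were called where 1.55% of all genes were. At an unadjusted p under 0.05, 2 of the 10 genes passed against 17% of all genes. DESeq2 called 1 of 10 with 5.82% of all genes, and limma-voom (with quality weights, here and below) 4 of 10 with 28.5% of all genes. The Mt1 difference passed under 7 of 26 alternative settings, with the estimate between 1.80 and 2.10 throughout. Among them were DESeq2 (adjusted p = 0.00493) and the fit of these 2 groups alone (adjusted p = 1.23e-05, 32.4% of all genes called). The fit of these 2 groups took its spread only from their own libraries, which agreed closely for Mt1 within each group. For VitD against control, Mt1 rose by 2.07 ± 0.44 (quasi-likelihood adjusted p = 0.0136), the 1 gene of 10 called, with 8.67% of all genes called. Mt2A was 1.41 ± 0.47 higher (adjusted p = 0.0791), passing under 6 of 26 alternatives, DESeq2 among them (adjusted p = 0.0196), and it was 0.68 higher (adjusted p = 0.364) without VitD replicate 1. Without the same library Mt1 was 1.40 higher (adjusted p = 0.0277). The Mt1 call was lost when control replicate 1 or 2 was left out (adjusted p = 0.140 and 0.124) and in the fit of these 2 groups alone (adjusted p = 0.104).

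Operated muscle given pMT had less Mt1 than operated muscle that was not. Against surgery alone, Mt1 fell by 1.74 on the log2 scale in the pMT group (SE 0.37, quasi-likelihood adjusted p = 0.0281). It was the 1 gene of 10 called, with 1.94% of all genes called. Mt2A differed by -1.10 ± 0.42 (adjusted p = 0.227). With the replicate number as a block, Mt1 differed by -1.485 and missed the threshold (quasi-likelihood adjusted p = 0.0999). With each library's length trend also removed it differed by -1.558 (adjusted p = 0.1001). The Mt1 call was lost when either surgery library was left out (adjusted p = 0.245 without replicate 1 and 0.236 without replicate 2) and when pMT replicate 1, 2 or 3 was left out (adjusted p between 0.0573 and 0.0882). With edgeR's exactTest, the test named in the study's methods, on these 6 libraries with a minimum fold of 2 and p below 0.05 before adjustment, both Mt1 and Mt2A were called and the other 8 genes were not, where 4.04% of all genes were. Their adjusted p values by edgeR's exactTest were 8.13e-13 for Mt1 and 1.86e-04 for Mt2A, with 2.72% of 16609 genes past the fold and an adjusted p under 0.05.

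With VitD in both groups, the difference was of the same kind. Mt1 fell by 2.06 (SE 0.34, adjusted p = 0.0014) and Mt2A fell by 1.36 (SE 0.38, adjusted p = 0.0207) in pMT/VitD against VitD by the quasi-likelihood test, and Sod2 rose by 0.42 ± 0.11 (adjusted p = 0.0141). These were 3 of 10 genes called, with 21.9% of all genes called. Mt1 kept its call in all 26 alternatives, with estimates from -2.44 to -1.39 and adjusted p up to 0.0217. Its mean ratio of VitD to pMT/VitD was 4.17, and 2.63 without VitD replicate 1. With library size alone, Sod2 differed by 0.08 (adjusted p = 0.591), where the median of all genes was -0.34. Without VitD replicate 1, the library with the highest metallothionein levels, Mt2A differed by -0.63 (adjusted p = 0.205) and Sod2 by 0.34 (adjusted p = 0.0557). Mt2A also missed the threshold without pMT/VitD replicate 3, at -1.16 (adjusted p = 0.0529). In the fit of these 2 groups alone, which called 11.3% of all genes, Mt2A differed by -1.35 (adjusted p = 0.0801) and Sod2 by 0.42 (adjusted p = 0.0809). Against surgery alone, Mt1 fell by 1.82 in pMT/VitD (SE 0.37, adjusted p = 0.0120), the 1 gene of 10 called with 7.44% of all genes called. This call was lost when surgery replicate 1 or 2 was left out (adjusted p = 0.0998 and 0.112), while Srxn1 joined it without pMT/VitD replicate 4 (-1.26, adjusted p = 0.0205) and Mt2A and Sod2 without VitD replicate 1 (adjusted p = 0.0314 and 0.0410).

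The remaining comparisons called none of the 10 genes. For pMT against control, Mt1 differed by 0.09 ± 0.40 and Mt2A by 0.06 ± 0.44, with 0% of all genes called, and at an unadjusted p under 0.05 only Cat passed, against 3.07% of all genes (DESeq2 called 0 of the 10 and 0% of all genes, and limma-voom 1 and 1.32%). For pMT/VitD against control, Mt1 differed by 0.01 ± 0.40 and Mt2A by 0.05 ± 0.44, with 0% of all genes called (1 of 10 against 2.88% at an unadjusted p under 0.05, 0 against 0.00581% by DESeq2, 2 against 10.6% by limma-voom). For VitD against surgery, Mt1 differed by 0.24 ± 0.40 and Mt2A by 0.25 ± 0.45, with 0% of all genes called (0 of 10 against 0.808% unadjusted, 0 against 0% by DESeq2, and 0 against 2.44% by limma-voom). For pMT/VitD against pMT, Mt1 differed by -0.08 ± 0.33 and Mt2A by -0.01 ± 0.36, with 0% of all genes called (1 of 10 against 10.1% unadjusted, 0 against 0.517% by DESeq2, 6 against 38.3% by limma-voom). That 0% rests on replicate 4 of both groups, the libraries that stood apart. Without them 18.3% of all genes were called and 1 of the 10 (Txnrd1), with Mt1 at -0.01 ± 0.42 and Mt2A at -0.05 ± 0.47. The interaction, which asks whether the pMT difference depended on VitD, was -0.32 ± 0.51 for Mt1 and -0.26 ± 0.57 for Mt2A, with 0% of all genes called (0 of 10 against 5.16% unadjusted, 0 against 0% by DESeq2, 1 against 31.4% by limma-voom). Without both replicates 4 it called 1.89% of all genes and 0 of the 10, at -0.26 ± 0.59 for Mt1 and -0.31 ± 0.68 for Mt2A. A missed threshold does not show equal levels, given these standard errors.

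Since the pMT difference had the same sign with and without VitD, the 8 operated libraries given pMT were also compared with the 5 not given it, as the mean of the pMT and pMT/VitD groups against the mean of the surgery and VitD groups. This comparison was added after the data were seen, and it shares its libraries with those above. Mt1 fell by 1.90 (SE 0.25, adjusted p = 1.77e-04) and Mt2A fell by 1.23 (SE 0.28, adjusted p = 0.00661) by the quasi-likelihood test, while Sod2 rose by 0.34 ± 0.08 (adjusted p = 0.00871). These were 3 of 10 genes called, with 23.3% of all genes called (10% higher and 13.3% lower). Both metallothioneins kept their calls under all 26 alternatives, with estimates from -2.16 to -1.57 for Mt1 and from -1.49 to -0.86 for Mt2A. Both are among the shortest 1% of transcripts tested by relative length (percentiles 0.901 and 0.855), and libraries differed in how counts followed length. The length trend (rho) was -0.50 in pMT replicate 4 and -0.58 to -0.27 in pMT/VitD replicates 1 to 3. It was 0.04 to 0.65 in the other pMT libraries and 0.28 in pMT/VitD replicate 4. The 5 operated libraries without pMT had -0.08 to 0.42, and the controls 0.11 and 0.21. With each library's length trend removed, Mt1 differed by -2.09 (adjusted p = 5.23e-05) and Mt2A by -1.40 (adjusted p = 0.00316).

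**Figure D2:**
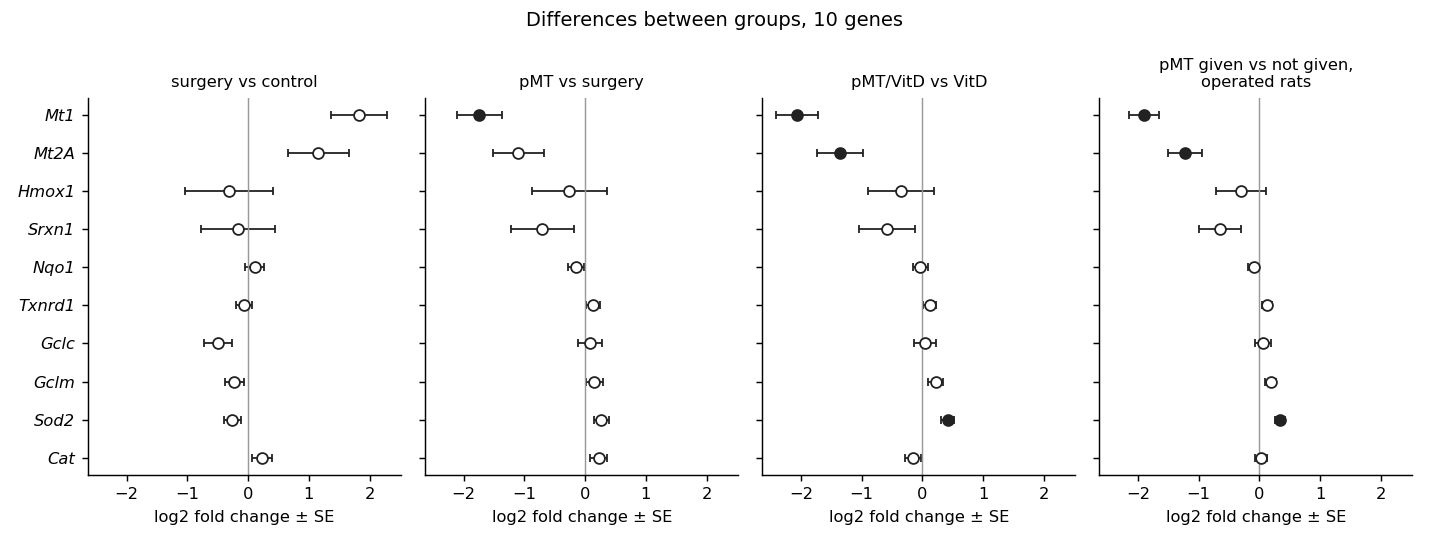
Log2 fold change with its standard error for the 10 genes in 4 comparisons from the quasi-likelihood fit, filled where the adjusted p was under 0.05. Mt1 and Mt2A were the farthest from 0 in every panel, on opposite sides for surgery against control (1.83 and 1.15) and pMT against surgery (-1.74 and -1.10). Those comparisons share the surgery libraries, on opposite sides, which by itself favours opposite signs.

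The metallothioneins moved with macrophage markers. The 8 markers, which include Lyz2 (lysozyme), C1qa (complement) and Adgre1 (the F4/80 antigen), summed to 229 and 223 CPM in the controls and 443 and 441 CPM after surgery. The sums were 593, 446 and 383 CPM in the VitD group, 186 to 256 CPM in the pMT group and 174 to 249 CPM in the pMT/VitD group. The libraries fell into the same high and low sets as for Mt1. Lyz2 was the most abundant marker and none of the 8 was at 0. All 8 markers fell in operated muscle given pMT against not given (13.3% of all genes lower), in pMT/VitD against VitD (21.9% of all genes called) and in pMT/VitD against surgery (7.44%), and 3 of 8 fell in pMT against surgery (1.94%). In contrast, 2 of 8 rose in surgery against control (1.55%) and 4 of 8 in VitD against control (8.67%). The mean ratio of surgery to control was 3.56 for Mt1, 2.23 for Mt2A and 1.96 for the marker sum, and that of VitD to pMT/VitD was 4.17, 2.56 and 2.37. Without VitD replicate 1 the latter ratios were 2.63, 1.55 and 2.07. Fibroblast markers (6 genes such as Col1a1 and Dcn) followed a like order, at 2540 and 2567 CPM in controls, 4373 and 4399 after surgery, 3694 to 6882 with VitD, 2533 to 2932 with pMT and 1917 to 2729 with both. Erythroid markers had another order, at 648 and 594 CPM in controls, 414 and 425 CPM after surgery, 321 to 647 with VitD, 602 to 1165 with pMT and 531 to 1339 with both, and 5 of 7 rose in operated muscle given pMT (10% of all genes higher). Schwann cell markers (6 genes) were 150 to 161 CPM in the 5 operated libraries without pMT and 115 to 146 CPM in the 8 with it, with 134 and 136 CPM in controls, and 1 of 6 fell with pMT (13.3% of all genes lower). Neutrophil markers were low throughout, at 1.77 to 10.9 CPM. The part of these cell types in the metallothionein result was not tested, and in whole muscle fewer cells of a type and less RNA per cell cannot be told apart.

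**Figure D3:**
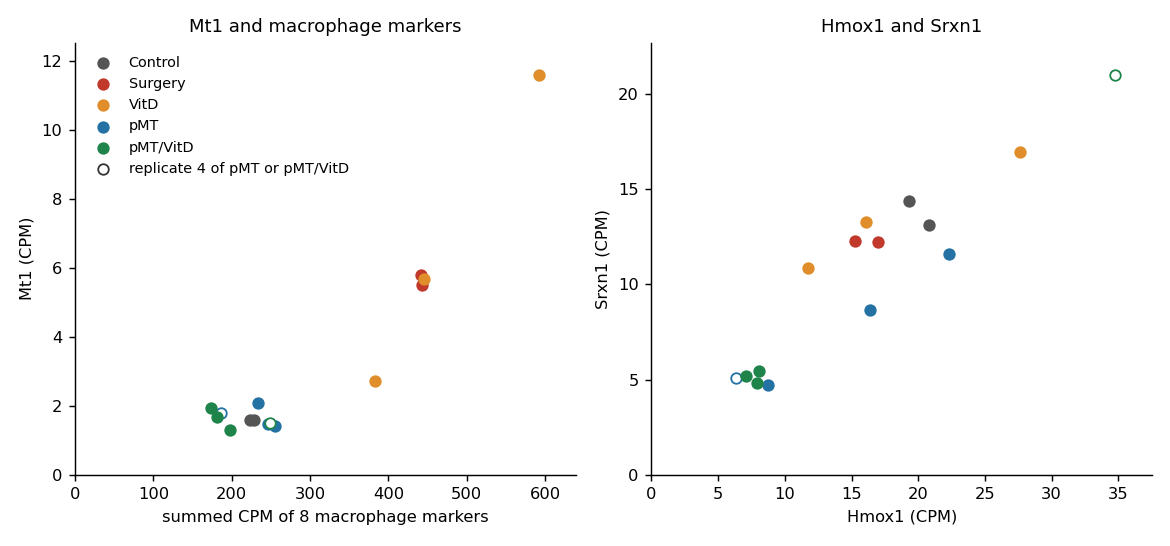
Left, Mt1 CPM against the summed CPM of 8 macrophage markers in each library, coloured by group; right, Srxn1 CPM against Hmox1 CPM. The 5 operated libraries without pMT had both the highest marker sums (383 to 593 CPM) and the highest Mt1, and on the right pMT/VitD replicate 4 lay at 34.8 CPM of Hmox1 and 21.0 CPM of Srxn1, far from the rest of its group.

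The ratio of the metallothioneins to each other also followed the groups. In TPM, Mt2A over Mt1 was 2.79 ± 0.19 (SD, n = 2) in controls, 1.74 ± 0.06 (n = 2) after surgery, 1.72 ± 0.07 (n = 3) with VitD, 2.70 ± 0.24 (n = 4) with pMT and 2.85 ± 0.75 (n = 4) with both. The ratio was 1.67 to 1.80 in the 5 operated libraries without pMT, while the other 10 libraries ranged from 2.01 to 3.66. Of the other metallothionein genes, the brain-type Mt3 had 45 to 236 counts and was tested, and it was not called with pMT (-0.37 ± 0.29). Mt1m had at most 9 counts in a library, Mt4 at most 2 and Mt1f 0.

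Hmox1, which encodes the inducible heme oxygenase that breaks heme down to biliverdin, iron and carbon monoxide, varied among libraries of one group as much as between groups. It measured 20.78 and 19.31 CPM in controls and 17.02 and 15.29 CPM after surgery. The VitD libraries measured 27.64, 16.11 and 11.75 CPM, and the pMT libraries 22.34, 16.36, 8.74 and 6.34 CPM. The pMT/VitD libraries measured 7.11, 7.95, 8.08 and 34.77 CPM. The last of these, replicate 4, was the highest of all 15 libraries, and the other 3 of its group were among the 5 lowest. With all libraries, Hmox1 differed by -0.35 ± 0.55 in pMT/VitD against VitD (quasi-likelihood adjusted p = 0.686). Without replicate 4 of both pMT and pMT/VitD, it differed by -1.27 ± 0.34 (adjusted p = 0.0138), in a fit that called 32% of all genes. Leaving out the highest library by itself lowers Hmox1 in the pMT/VitD group, here and in the comparisons that follow. Against pMT, Hmox1 in pMT/VitD then differed by -1.03 ± 0.34 (adjusted p = 0.0551), from 0.11 ± 0.51 with all libraries. Against surgery it differed by -1.07 ± 0.37 (adjusted p = 0.06), from -0.16 ± 0.62. Against control it differed by -1.36 ± 0.37 (adjusted p = 0.0956), from -0.47 ± 0.62.

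Srxn1, the sulfiredoxin that restores over-oxidised peroxiredoxins, was likewise highest in pMT/VitD replicate 4. It measured 13.11 and 14.36 CPM in controls and 12.22 and 12.30 CPM after surgery. The VitD libraries measured 16.94, 13.27 and 10.87 CPM, and the pMT libraries 11.59, 8.65, 4.71 and 5.07 CPM. The pMT/VitD libraries measured 5.21, 4.84 and 5.44 CPM in replicates 1 to 3 and 21.02 CPM in replicate 4. Apart from that library, every library given pMT was below every surgery library, and the ranges of pMT and VitD overlapped. With all libraries, Srxn1 differed by -0.65 ± 0.35 in operated muscle given pMT against not given (adjusted p = 0.198). Without replicate 4 of both groups, the difference was -0.998 ± 0.19 (adjusted p = 0.00204, 28.5% of all genes called). As for Hmox1, leaving out the highest library by itself lowers Srxn1 in the pMT/VitD group. In the same comparison Hmox1 differed by -0.66 ± 0.25 (adjusted p = 0.0644). For pMT/VitD against VitD, Srxn1 then differed by -1.42 ± 0.26 (adjusted p = 0.00142) by the same test. For pMT/VitD against pMT it differed by -0.68 ± 0.26 (adjusted p = 0.0818), from 0.28 ± 0.44 with all libraries. For pMT/VitD against control it differed by -1.39 ± 0.28 (adjusted p = 0.0659), from -0.59 ± 0.52. Over the 15 libraries, Hmox1 and Srxn1 had a Pearson r of 0.94 on log2 CPM (0.92 over the 13 libraries without both replicates 4) and a Spearman rho of 0.84, as a description of libraries that share groups and scaling.

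Like Hmox1 and Srxn1, the Nrf2 targets Nqo1, Txnrd1, Gclc and Gclm were called in no comparison of the quasi-likelihood fit of all 15 libraries scaled by trimmed mean of M values with no length correction. Nqo1, the quinone reductase, was the steadiest of the 10 genes, from 8.48 to 11.39 CPM, with overlapping values in every group given pMT or VitD. Its difference was 0.11 ± 0.16 for surgery against control and -0.09 ± 0.09 for operated muscle given pMT, or -0.34 (adjusted p = 0.0121) with library size alone, where the median of all genes was -0.23. With library size alone it also passed in pMT/VitD against VitD, at -0.37 (adjusted p = 0.0308), where that median was -0.34. Txnrd1, the cytosolic thioredoxin reductase, ranged from 20.76 to 28.99 CPM and differed by 0.12 ± 0.08 with pMT, or by 0.16 ± 0.05 (adjusted p = 0.0384) with each library's length trend removed, where 28.2% of all genes were called. In the pMT group it measured 28.99, 28.29, 28.10 and 23.11 CPM, the low value being replicate 4. In the pMT/VitD group it measured 23.18, 22.78, 24.51 and 27.85 CPM, the high value being replicate 4. Without both of these libraries, Txnrd1 was 0.27 lower in pMT/VitD than in pMT (SE 0.08, adjusted p = 0.0307), in a fit that called 18.3% of all genes. They held the lowest pMT and the highest pMT/VitD value, so leaving them out by itself widens this difference.

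Gclc and Gclm encode the catalytic and the modifier subunit of glutamate-cysteine ligase, which makes the first step of glutathione synthesis. Gclc measured 9.70 and 10.41 CPM in controls, 7.20 and 7.09 CPM after surgery, and 6.75, 7.09 and 6.75 CPM with VitD. The control libraries were above every library of these 2 groups and above all pMT libraries, which measured 7.68, 8.18, 8.25 and 6.05 CPM. The pMT/VitD libraries measured 5.40, 5.62, 7.59 and 9.83 CPM, with replicate 4 inside the control range. Against control, Gclc differed by -0.49 ± 0.23 after surgery (adjusted p = 0.299) and by -0.55 ± 0.21 with VitD (adjusted p = 0.115) by the quasi-likelihood test, and the VitD difference passed without both replicates 4, at -0.52 ± 0.13 (adjusted p = 0.0226, 15.1% of all genes called). The surgery difference passed in the fit of those 2 groups alone, at -0.47 (adjusted p = 0.00541, 32.4% of all genes called). Gclm ranged from 6.91 to 9.66 CPM and differed by -0.22 ± 0.16 after surgery and by 0.19 ± 0.09 with pMT, neither of them called. In the pMT/VitD group the lowest Gclm library, replicate 3, was not among the lowest 2 for Gclc.

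Sod2 encodes the manganese superoxide dismutase of mitochondria, and in CPM it was lowest in the surgery and VitD groups, where Mt1 was highest. It measured 202 and 208 CPM in controls and 170 and 172 CPM after surgery. The VitD libraries measured 145, 171 and 177 CPM. The pMT libraries measured 204, 203, 195 and 220 CPM, and the pMT/VitD libraries 232, 242, 198 and 205 CPM. All 8 libraries given pMT were above all 5 operated libraries without it, and the controls lay among the pMT libraries. The muscle fibre marker sums were 156300 and 170000 CPM in controls, 133600 and 136900 after surgery, 104300 to 142500 with VitD, 138200 to 152100 with pMT and 159300 to 184200 with both. Of these 8 markers, 1 rose with pMT, where 10% of all genes were higher, and 3 in pMT/VitD against VitD, where 21.9% of all genes were called. Their part in the Sod2 result was not tested. The difference of 0.34 ± 0.08 with pMT was called with the scaling by trimmed mean of M values, but with library size alone it was 0.10 (adjusted p = 0.362) while the median of all genes shifted to -0.23, and it also missed the threshold without surgery replicate 1 (adjusted p = 0.0521). In TPM, which carries its own scaling, Sod2 averaged 123 in controls, 128 after surgery, 123 with VitD, 138 with pMT and 121 with both, so the order depended on the scale. Against surgery, Sod2 differed by 0.26 ± 0.12 in pMT (adjusted p = 0.348) and 0.36 ± 0.12 in pMT/VitD (adjusted p = 0.0908).

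Cat, the catalase of peroxisomes, followed neither pattern. It measured 82.0 and 82.3 CPM in controls, 96.3 and 96.7 CPM after surgery, and 89.1, 99.0 and 100.9 CPM with VitD. The pMT libraries measured 120, 110, 93.4 and 126 CPM and the pMT/VitD libraries 103, 90.8, 79.8 and 72.7 CPM. The pMT group was thus the highest on average and the pMT/VitD group spread across the controls. The difference was 0.45 ± 0.15 for pMT against control (unadjusted p = 0.00851) and -0.38 ± 0.12 for pMT/VitD against pMT (unadjusted p = 0.00697), and neither passed the quasi-likelihood test after adjustment (adjusted p = 1 and 0.452). Without replicate 4 of both groups the latter difference was -0.23 ± 0.11 (unadjusted p = 0.0613). For operated muscle given pMT, Cat differed by 0.03 ± 0.10, and by -0.22 (adjusted p = 0.0477) with library size alone, which also gave -0.50 (adjusted p = 0.00272) for pMT/VitD against VitD.

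**Figure D4:**
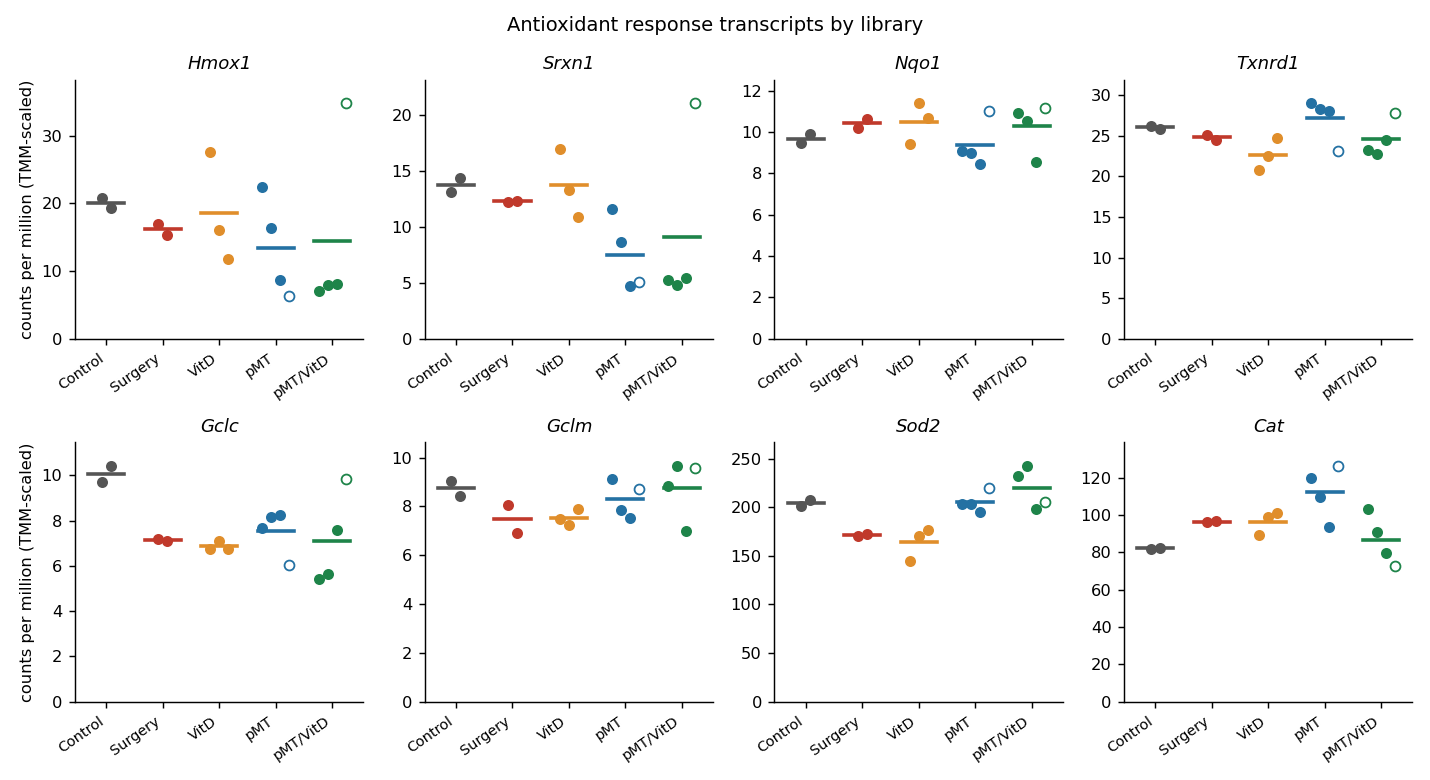
CPM of the 8 antioxidant response genes in each library, with each group's mean as a bar and open circles for replicate 4 of pMT and of pMT/VitD; every vertical axis starts at 0 and has its own range. Replicate 4 of pMT/VitD was far above its group for Hmox1 (34.8 CPM) and Srxn1 (21.0 CPM), and Sod2 separated the operated libraries with pMT (195 to 242 CPM) from those without (145 to 177 CPM).

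The wider pathways were described with lists of genes, mainly for operated muscle given pMT against not given, where 23.3% of all genes were called and the median of all genes was 0.01. Of all genes, 10% were higher and 13.3% lower, the shares to set beside the counts that rose or fell with pMT. Of 21 tested metallothionein and zinc handling genes, Mt1 and Mt2A among them, 8 fell and 1 rose (median -0.16). Slc39a8, a zinc and manganese importer, fell by 1.38 (adjusted p = 8.63e-04) and Slc30a2, a zinc exporter into vesicles, fell by 1.30 (adjusted p = 0.0145), while Slc30a9 rose by 0.26 (adjusted p = 0.0451). Slc39a8 measured 0.82 and 0.50 CPM in controls, 1.69 and 1.62 after surgery, 2.95, 1.72 and 1.31 with VitD, 0.58 to 0.96 with pMT and 0.41 to 0.86 with both. It too separated the 8 libraries with pMT from the 5 without, at a low level. Slc39a1, a zinc importer and the most abundant of the list at 31.3 TPM, differed by -0.02 ± 0.09.

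Among 12 regulators of Nrf2, 3 rose and 1 fell with pMT (median 0.10). Keap1, the inhibitor of Nrf2, rose by 0.31 ± 0.06 (adjusted p = 0.00286), Sqstm1, the autophagy receptor p62 that competes for Keap1, by 0.36 ± 0.09 (adjusted p = 0.00908), and Rbx1, a subunit of the ligase that marks Nrf2 for degradation, by 0.32 ± 0.11 (adjusted p = 0.0445). Nfe2l2, the gene of Nrf2 itself, fell by 0.35 (SE 0.08, adjusted p = 0.00503). Nfe2l2 measured 40.4 and 40.8 CPM after surgery and 43.7, 41.4 and 46.7 CPM with VitD, against 31.9 to 37.8 CPM with pMT and 26.1 to 34.5 CPM with both. The controls, at 32.2 and 34.2 CPM, lay within the range of the libraries given pMT. Of 26 other Nrf2 targets, 5 fell and 0 rose (median -0.19), where 13.3% of all genes were lower and 10% higher. The largest falls were in Ftl1, the ferritin light chain (-0.59), Ugdh, which makes UDP-glucuronate (-0.56), and the carbonyl reductase Cbr3 (-0.47). Fth1, the ferritin heavy chain and the most abundant of them at 2534 TPM, differed by 0.40 ± 0.16 (adjusted p = 0.0829).

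Enzymes that remove superoxide and peroxides moved both ways, with 4 of 17 higher and 3 lower (median 0.08). Gpx4, the lipid hydroperoxide peroxidase, rose by 0.44, Prdx5 by 0.41 and Park7 by 0.39, whereas Gpx7 and Gpx8, peroxidases of the endoplasmic reticulum, fell by 0.70 and by 0.61, and the lactonase Pon2 fell by 0.42. Of 28 genes of the glutathione and thioredoxin systems, 3 rose and 4 fell (median 0.07). Selenow, a selenoprotein abundant in muscle (1032 TPM on average), rose by 0.90 (adjusted p = 0.00126), and Glrx5 rose by 0.48. Sesn3, a stress-induced sestrin, fell by 0.89 (adjusted p = 3.04e-05), Selenop, the plasma carrier of selenium, fell by 0.79 and Ggt5 fell by 0.45. Sesn3 also passed in surgery against control, where it rose by 0.76 (adjusted p = 0.0325), and in pMT against surgery, where it fell by 0.67 (adjusted p = 0.0203). It measured 16.4 CPM in both controls, 27.6 and 28.1 CPM after surgery, 28.6 to 30.4 CPM with VitD, 14.2 to 21.7 CPM with pMT and 12.4 to 15 CPM with both, so that no library given pMT reached the operated libraries without it.

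Heme and iron genes, with the 2 gene identifiers of Slc40a1 counted apart, had 7 of 19 lower and 1 higher (median -0.18). Cd163, the macrophage receptor for hemoglobin, fell by 0.98 and Slc40a1, the iron exporter ferroportin, which the table lists under 2 gene identifiers, fell by 0.94 and 0.87, while Fech, the last enzyme of heme synthesis, rose by 0.31. Sources of oxidants had 6 of 16 lower and 0 higher (median -0.47), among them the NADPH oxidases Nox4 (-1.12, adjusted p = 1.99e-04) and Duox1 (-1.10). Genes induced by glucocorticoids, which also act on metallothioneins, had 4 of 14 higher and 1 lower (median 0.22), in which Nfkbia, the NF-kappaB inhibitor, rose by 0.96, Angptl4 by 0.73 and Cebpd by 0.65, and Klf15 fell by 0.58. The most abundant member of this list was Pdk4 at 253 TPM. Cd163 is itself a macrophage marker, and the macrophage marker sums given above moved with these lists; their part in the list counts was not tested.

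**Figure D5:**
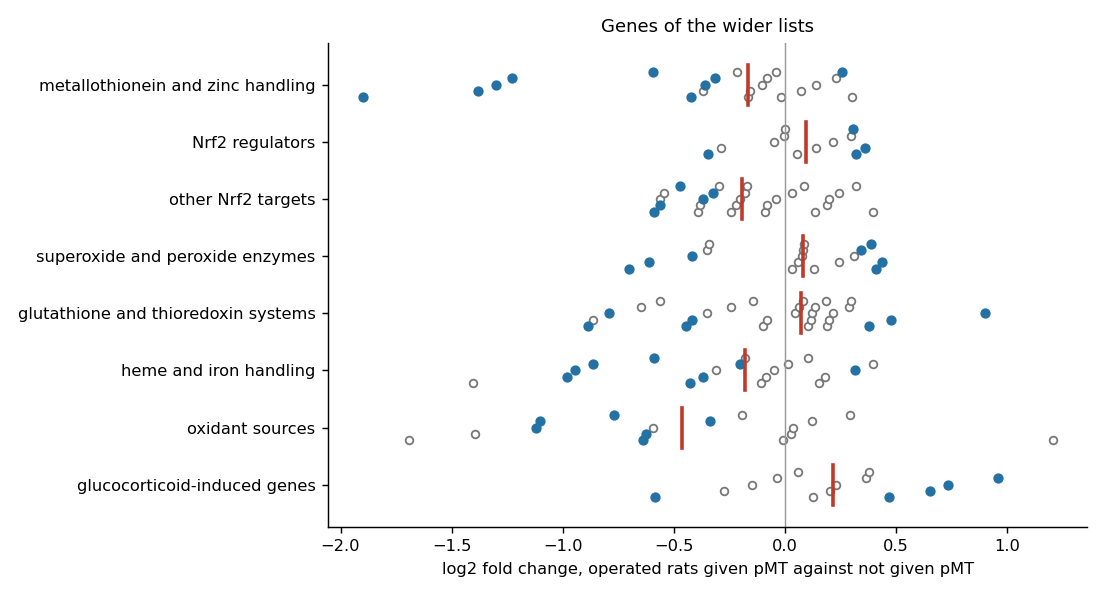
Log2 fold change of each tested gene of 8 lists for operated muscle given pMT against not given, filled where the adjusted p was under 0.05, with the list's median as a vertical bar. The medians ran from -0.47 for oxidant sources to 0.22 for glucocorticoid-induced genes, and Mt1 (-1.90) was the lowest of the called genes.

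In comparisons with the controls, the same 8 lists held 145 tested genes in all, with the 2 gene identifiers of Slc40a1 counted apart. In surgery against control, 2 of 145 (1.4%) were called, Sesn3 (0.76) and Slc40a1 (0.84), both higher, where 1.55% of all genes were. In VitD against control, 15 of 145 (10.3%) were called, 12 higher and 3 lower, where 8.67% of all genes were. Besides Mt1, the higher ones were Slc39a8 (1.59), Nox4 (1.32), Slc40a1 (0.97 and 0.87), the phagocyte oxidase subunit Cyba (0.92), Sesn3 (0.85), Gpx7 (0.80), Ggt5 (0.75), Selenop (0.68), Rac2 (0.64) and Pon2 (0.49). Selenow fell by 0.99, Nfkbia fell by 0.89 and Fech fell by 0.40. These comparisons share the control libraries.

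The genes whose log2 CPM followed each of the 10 most closely over the 15 libraries were found by Pearson correlation among 11398 genes, as a description of libraries that share groups, depth and scaling. For Mt1 they were Lyz2 (r = 0.99), Tyrobp, an adaptor of myeloid receptors (0.98), and Tsc22d1 (0.97), which ranked 17, 106 and 428 among the same genes by Spearman correlation. For Mt2A they were Ckap4 (0.95), Cd44 (0.95) and Litaf (0.95), with Spearman ranks of 33.5, 84.5 and 188.5. Mt1 and Mt2A had an r of 0.94 with each other (Spearman rho 0.86). Mt1 and Sod2 had an r of -0.83 but a Spearman rho of -0.49. Hmox1 followed Csrnp1 (0.96), Xirp1 (0.95) and Cd83 (0.95), and Srxn1 followed Tlr2 (0.97), Cd83 (0.96) and Hmox1 itself (0.94). Sod2 followed Gadl1 (0.98) and Cab39l (0.98), Txnrd1 followed Sox13 (0.96), Epn2 (0.94) and Heatr6 (0.94), and Gclc followed Arhgef7 and Flot2 (0.93 each). The closest genes were less close for Gclm (Fars2, 0.88), Cat (Srp54a, 0.87) and Nqo1 (Vps45, 0.78). The genes named here for the 8 antioxidant genes had Spearman ranks between 1 and 34.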

How the data were processed

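One table held 15 rat multifidus libraries. The authors trimmed paired reads with Trimmomatic 0.38, aligned them to rn6 with HISAT2 2.1.0, sorted them with SAMtools 1.9 and quantified RefSeq genes with StringTie 2.1.3b, and they deposited read counts, TPM and FPKM values per gene. Strand and multi-mapped reads are not given in the sources used here, so reads shared by near-identical copies such as the metallothioneins may be split. Deposited counts were tested, deposited TPM values gave levels between genes, and deposited FPKM values were not used. The GRCr8 tables gave names, positions and promoters only.

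Counts were scaled by trimmed mean of M values, filtered by group (17201 genes kept) and fitted over all 15 libraries with edgeR 4.0.16 (robust quasi-likelihood) in R 4.3.3, with Benjamini-Hochberg adjustment over all genes tested and calls at 0.05. DESeq2 1.42.0 and limma 3.58.1 (voom with quality weights) were alternatives. In simulated pMT against surgery counts with 200 changed genes, 61% of those changed by 2-fold and 93% of those changed by 4-fold were recovered, with 6 false calls among 16934 genes. The exactTest rule with unadjusted p recovered 35% and 99%, with 212 false calls among 16452 genes. The labels do not say that libraries came from separate rats, so p-values measure the spread between libraries, which may be technical. From each list, the 3 most abundant genes and up to 3 called genes in each direction could be named, and for each of the 10 genes the 3 closest by correlation. A few genes that this rule would name are not reported here. Mt3, Mt4, Mt1m, Mt1f and other values outside this rule were chosen after their values were seen. The 10 genes, the lists and the tests were chosen with earlier results of these data known.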

Additional observations from a re-analysis of the deposited data

Results flagged for a closer look

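In 3 of 20 sets of 4 libraries (10 genes in the pMT and pMT/VitD groups), 1 library lay farther from the rest of its group than Dixon's 95% criterion allows, where chance gives about 1. Hmox1 was at 34.77 CPM in pMT/VitD replicate 4, with the nearest library of the group at 8.08 CPM. Srxn1 was at 21.02 CPM in the same library, with the nearest at 5.44 CPM. Txnrd1 was at 23.11 CPM in pMT replicate 4, with the nearest at 28.1 CPM. All 3 values come from the 2 libraries that were closer to the other group given pMT than to their own.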

How the results depend on the processing

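Over 120 results for single genes and 3110 alternatives, 63 results kept their side of the threshold throughout, 43 of them with a change of sign at least once and 20 with none. The latter include the tests for any difference of Mt1 and Hmox1, which have no sign. Of 11 results called in the main fit, those called throughout were Mt1 for any difference and for pMT/VitD against VitD. Both metallothioneins for pMT given against not given were also called throughout. The numbers of the 10 genes called changed by over 1.5 times as follows, each with the share of all genes called by the same fit in parentheses. For surgery against control, 0 (1.55%) became 2 (5.8%) with library size alone, 1 (5.82%) with DESeq2, 4 (28.5%) with limma-voom, 1 (3.23%) with the length trend removed and 6 (32.4%) with the 2 groups alone. For VitD against control, 1 (8.67%) became 3 (16.2%) with library size alone, 2 (14.4%) with DESeq2, 8 (37.4%) with limma-voom, 2 (15.1%) without both replicates 4 and 0 (0.579%) with the 2 groups alone. For pMT against surgery, 1 (1.94%) became 6 (37.5%) with limma-voom and 2 (3.13%) with the 2 groups alone. For pMT/VitD against surgery, 1 (7.44%) became 3 (18.9%) with library size alone, 2 (13.1%) with DESeq2, 5 (39.4%) with limma-voom, 3 (9.96%) with the length trend removed and 3 (20.1%) without both replicates 4. For pMT/VitD against VitD, 3 (21.9%) became 6 (48.7%) with limma-voom, 5 (32%) without both replicates 4 and 1 (11.3%) with the 2 groups alone. For pMT/VitD against pMT, 0 (0%) became 6 (38.3%) with limma-voom and 1 (18.3%) without both replicates 4. Limma-voom gave 1 (1.32%) for pMT against control, 2 (10.6%) for pMT/VitD against control and 1 (31.4%) for the interaction, all from 0 (0%), 7 (51.2%) for pMT given against not given, from 3 (23.3%), and 9 (66.6%) for any difference, from 2 (11.8%), where no filter gave 1 (7.28%) and the fit without both replicates 4 gave 5 (29.8%). The cause of these changes was not tested.

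Leaving out each library in turn gave 0 to 1 for surgery against control, 0 to 2 for VitD against control, 0 to 1 for pMT against surgery, 0 to 3 for pMT/VitD against surgery, 1 to 5 for pMT/VitD against VitD, 2 to 4 for pMT given against not given, 1 to 3 for any difference and 1 to 3 by the exact test. A group left with 1 library was assumed to vary like the others. The shares of all genes called with each library left out in turn are not given here. These ranges thus cannot tell a change in the chosen genes from a change in calls over all genes. Hmox1 in pMT/VitD against pMT turned from 0.11 to -0.90 (adjusted p = 0.0421) under limma-voom. It also turned in the quasi-likelihood fit without both replicates 4, the libraries that stood apart, to -1.03 ± 0.34 (adjusted p = 0.0551). Cat in pMT given against not given turned to -0.22 (adjusted p = 0.0477) with library size alone. That scaling moves the median of all genes to between -0.34 and 0.27.

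Deviations of same-numbered libraries of different groups had correlations of -0.50 to 0.17 (24 pairs), with 2 over 0.1. Those of libraries with different numbers were -0.29 to 0.43 (64 pairs), with 8 over 0.1. No pairing by replicate number was seen, but with so few libraries per group this check cannot exclude it. With the replicate number as a block, 2 genes were called for VitD against control (7.56% of all genes) and 0 for pMT against surgery (0.453%), and again 2 (13%) and 0 (0.616%) with the length trend also removed.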
